A study of Bos taurus with 5 samples.

Results

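The SR proteins and the heterogeneous nuclear ribonucleoproteins (hnRNPs) are the main sequence-specific RNA-binding proteins that decide which splice sites of a pre-mRNA are used. They were taken here as every gene of the deposited table whose symbol begins with SRSF and a digit, 11 genes, or with HNRNP, 20 genes, which gave 31 of the 27607 genes listed. The 11 SRSF genes were SRSF1 to SRSF7 and SRSF9 to SRSF12. The rule used gene names alone and no measured value.

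The embryos were cattle (Bos taurus) embryos developed in vitro and collected at the 4-cell stage by their labels (at 2 to 4 cells by the text of the series). They were sired by bulls classed as high performing (3 pools) or low performing (2 pools), and each pool held 100 embryos. No source used here gives the performance measure or the number of bulls, and nothing says if the pools had separate sires or cultures, so p-values measure only the spread between these pools. The labels also name recombinant Wnt5A, a secreted signalling protein, as treatment for all 5 pools alike. It is not clear from them if these embryos were treated. The comparison asks how the class of the sire goes with the levels of these mRNAs in the early embryo.

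SR proteins carry RNA recognition motifs followed by a tail rich in arginine and serine. Bound to exons, they recruit the spliceosome and usually promote inclusion of the exon, and kinases that phosphorylate the tail set where they sit and how active they are. The hnRNPs coat nascent RNA through RNA recognition or KH domains and often glycine-rich stretches, and many of them oppose SR proteins by silencing exons, besides acting in export, stability and translation of mRNA. In the cleavage-stage cattle embryo most of these mRNAs are inherited from the egg, because major activation of the embryonic genome comes later. Both families also regulate their own messages through unproductive splice forms, and gene-level values do not separate those forms from coding ones.

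Expression is given as RPKM, reads scaled by gene length in kilobases and by the reads counted in genes per library, as the authors deposited it. Reads in genes, recovered from RPKM and gene length, came to between 67248924 and 113100809 per pool and 320 or more reads lay behind every value of the 31 genes. Of the egg and embryo markers, 15 of 15 were above the filter on low values, with a median level of 528 RPKM. Of these, 11 were higher in both low-performing pools than in every high-performing pool, against 29.4% of all genes tested. The 15 markers had a median length of 1337 bases, and 55.6% of genes of 1001 to 1500 bases were higher in this way. The 4 of 10 cumulus and granulosa markers above the filter summed to 30.6 to 36.0 RPKM in the high-performing pools and to 29.3 and 22.3 RPKM in the low-performing pools, mostly HAS2, which was lower without overlap (-0.47 ± 0.19 SE on the log2 scale). The receptor gene FSHR averaged 0.0464 RPKM in the high-performing and 0.0424 RPKM in the low-performing pools. The sperm protamine gene PRM2 and the haemoglobin gene HBB were listed at 0 in all pools, and the leukocyte gene PTPRC stood near 0.05 RPKM. The 3 of 10 sperm markers above the filter summed to 21.3 to 22.2 RPKM in the high-performing pools and to 26.2 and 36.5 RPKM in the low-performing pools, with ACRV1 and SPA17 higher without overlap. On the log2 scale ACRV1 stood at 0.97 and SPA17 at 0.93. With the trend over gene length removed they came to 0.69 and 0.50, and HAS2 came to -0.20. The 2 of 8 blood and immune markers above it, mostly CSF1R, summed to 16.4 to 19.0 RPKM against 19.7 and 17.5 RPKM. The part of these markers in the results below was not tested. In bulk RNA from whole embryos, fewer cells and less RNA per cell cannot be told apart.

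Low-performing pool 2 stood farther from the high-performing pools than pool 1 did for most of these genes. Both low-performing pools lay on the same side of the high-performing mean for 25 of the 31 genes, and in 23 of the 25 pool 2 lay farther out than pool 1. The same count was not made over all genes, so it does not show a trait of these families. Values of the low-performing pools are therefore given one by one.

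**Figure D1:**
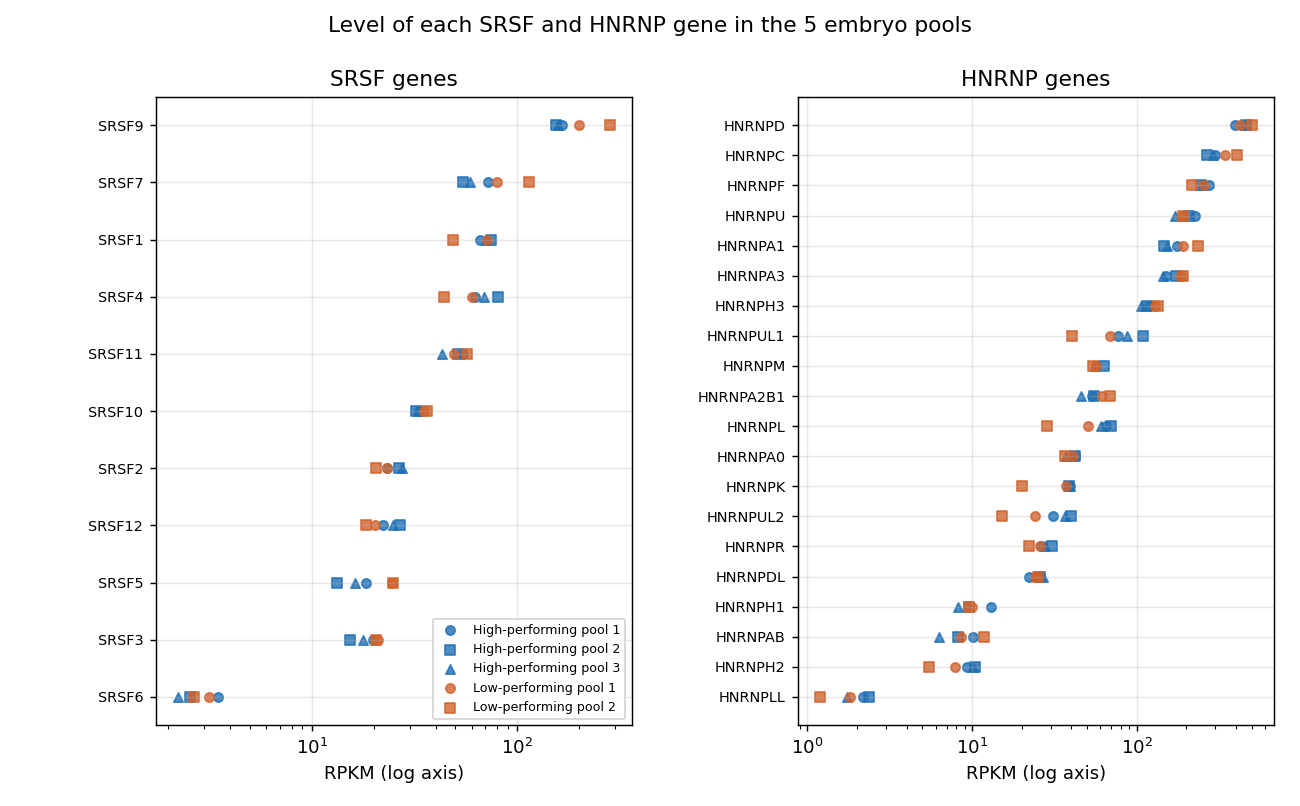
RPKM (log axis) of each SRSF gene (left) and HNRNP gene (right) in the 3 high-performing pools (blue) and the 2 low-performing pools (orange), ordered by mean RPKM. Levels run from 1.86 RPKM for HNRNPLL to 449 RPKM for HNRNPD, and the groups lie clearly apart for few genes, among them SRSF5, SRSF9 and HNRNPUL2.

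All 31 genes were expressed and passed the filter of at least 1 RPKM in at least 2 pools. Their mean levels over the 5 pools spanned a 241-fold range. HNRNPLL, the L-like paralog that silences exons in activated lymphocytes, was the lowest and nearest the filter, at 2.18, 2.38 and 1.74 RPKM in high-performing pools 1, 2 and 3 and at 1.82 and 1.19 RPKM in low-performing pools 1 and 2. No member lay outside the filter. Mean levels were at least 100 RPKM for 8 genes and under 10 RPKM for 4 genes, HNRNPLL, SRSF6, HNRNPH2 and HNRNPAB.

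HNRNPD, also known as AUF1, which binds AU-rich elements of mRNAs and hastens their decay, was the most abundant member. It stood at 397, 462 and 457 RPKM in the high-performing pools and at 423 and 505 RPKM in the low-performing pools. The groups overlapped. HNRNPC, which binds uridine tracts of nascent RNA, came next, at 299.7, 266 and 293 RPKM in the high-performing pools and at 342 and 406 RPKM in the low-performing pools, which were both higher. HNRNPF, a binder of G-rich elements, stood at 274, 246 and 253 RPKM against 257 and 218 RPKM, and its groups overlapped. These 3 genes made up between 45.9% and 50.8% of the summed RPKM of the 20 HNRNP genes in every pool.

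SRSF9 held the same place among the SR proteins. It gave 30.6%, 29.0% and 30.2% of the summed SRSF RPKM in the high-performing pools and 34.1% and 42.3% in the low-performing pools. SRSF7, SRSF1, SRSF4 and SRSF11 followed, with mean levels of 75.7, 66.0, 63.1 and 50.9 RPKM. SRSF6, close in sequence to SRSF4 and SRSF5, was the lowest SR protein mRNA, at 2.22 to 3.50 RPKM.

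The SR protein mRNAs that stood out were SRSF5, SRSF7 and SRSF9, higher in the low-performing pools, and SRSF4, lower there. SRSF5 and SRSF7 differed by a ratio of about 1.6 and SRSF9 by 1.52 between group means, and SRSF4 stood at 0.736 of its high-performing level. None of the 31 genes passed limma with Benjamini-Hochberg adjustment over all 12448 genes tested (0% of all genes called at an adjusted p under 0.05). Fold changes are given throughout as log2(RPKM + 1) in the low-performing less that in the high-performing pools, a scale that understates the change of low genes.

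SRSF9, an SR protein with a short tail that acts both as an enhancer and as a repressor of exons, lies on chromosome 17, positions 62757004 to 62763283, minus strand, of the ARS-UCD1.2 build. It stood at 165, 154 and 157 RPKM in high-performing pools 1, 2 and 3 and at 200.1 and 283 RPKM in low-performing pools 1 and 2. Both low-performing pools were above every high-performing pool, by a log2 fold change of 0.58 ± 0.17 (SE; limma, adjusted p = 0.0853). It came to 0.33 with low-performing pool 2 left out, to 0.83 with pool 1 left out and to 0.35 with quantile normalization.

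SRSF7, which also ties splicing to export of mRNA, lies on chromosome 11, positions 21086083 to 21091537, minus strand. It stood at 72.0, 54.1 and 58.7 RPKM in the high-performing pools and at 79.2 and 114 RPKM in the low-performing pools. The groups did not overlap, though high-performing pool 1 came close to low-performing pool 1. This gave a log2 fold change of 0.63 ± 0.20 (SE; limma, adjusted p = 0.0915), which came to 0.37 when low-performing pool 2 was left out and to 0.89 when pool 1 was. HNRNPLL lies 138 kb away on the same strand, with 3 listed genes between them, and stood at -0.31 ± 0.16 (SE) on the log2 scale with overlapping groups.

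SRSF5, a member of the group of SRSF4 and SRSF6, lies on chromosome 10, positions 81495740 to 81501121, plus strand. It stood at 18.4, 13.2 and 16.2 RPKM in the high-performing pools and at 24.6 and 24.7 RPKM in the low-performing pools. The low-performing pools were nearly equal and both above every high-performing pool, so this difference, 0.61 ± 0.16 (SE; limma, adjusted p = 0.0829) on the log2 scale, was as large without low-performing pool 2 (0.61) as without pool 1 (0.62).

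SRSF4, the longest-tailed member of that group, lies on chromosome 2, positions 124374950 to 124400699, plus strand, and went the other way. It stood at 62.0, 80.9 and 68.9 RPKM in the high-performing pools and at 60.1 and 43.8 RPKM in the low-performing pools. Low-performing pool 1 was only slightly below high-performing pool 1. The log2 fold change was -0.44 ± 0.18 (SE; limma, adjusted p = 0.135), and it came to -0.22 with low-performing pool 2 left out and to -0.67 with pool 1 left out.

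SRSF1, the founding member of the family and the textbook antagonist of hnRNP A1 in splice-site choice, stood at 65.8, 74.3 and 70.5 RPKM in the high-performing pools and at 71.1 and 48.4 RPKM in the low-performing pools. Its groups overlapped, and low-performing pool 2 alone was low. The log2 fold change of -0.25 ± 0.18 (SE) turned to 0.02 without that pool.

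**Figure D2:**
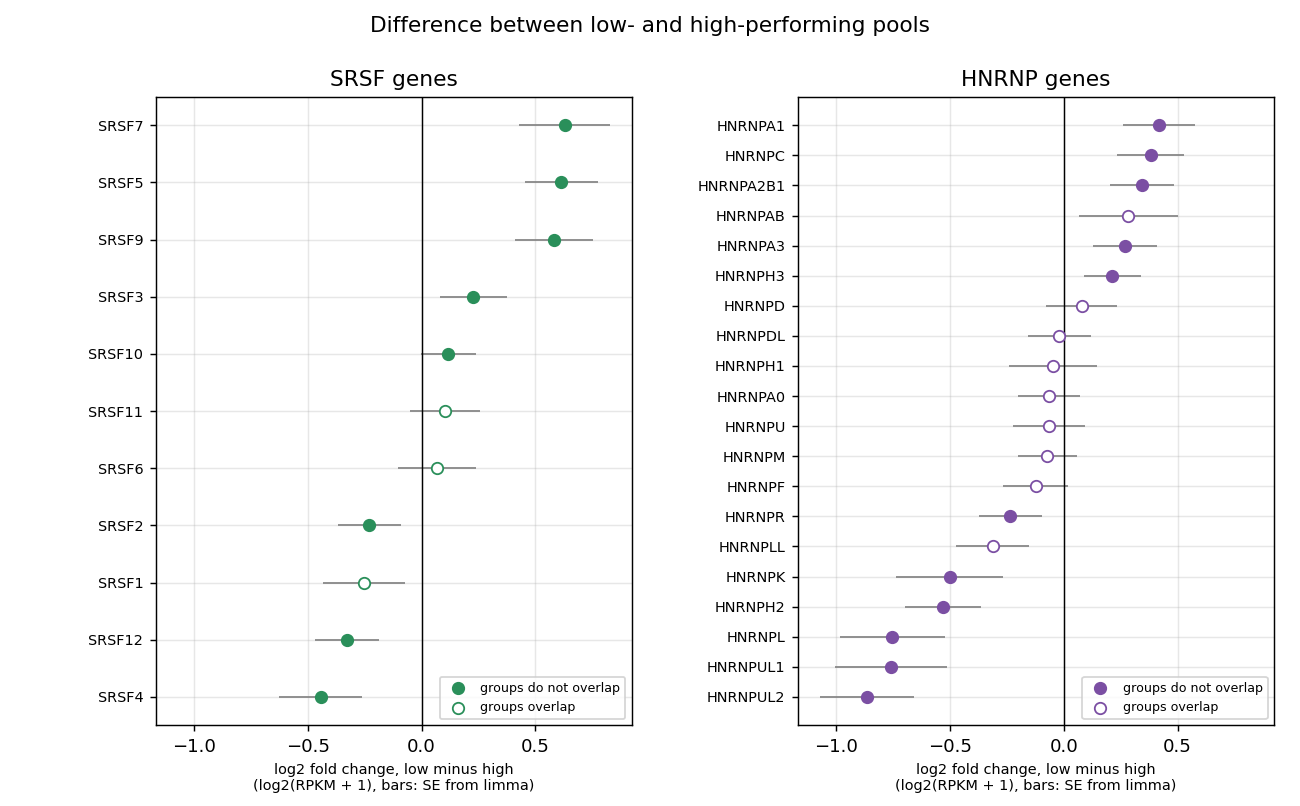
log2 fold change (low-performing minus high-performing pools, log2(RPKM + 1), n = 3 and 2) of each gene with its SE from limma. Filled points are genes whose groups do not overlap. SRSF7, SRSF5 and SRSF9 lead the SRSF genes at about 0.6, and HNRNPUL2, HNRNPUL1 and HNRNPL are the lowest HNRNP genes, at -0.86 to -0.75.

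Of the remaining SR proteins, SRSF3, the smallest, which shares its type of recognition motif with SRSF7, was higher in both low-performing pools by 0.23 ± 0.15 (SE) on the log2 scale, and SRSF10, which represses splicing when dephosphorylated, by 0.12 ± 0.12 (SE). SRSF12, a paralog of SRSF10, stood at -0.33 ± 0.14 (SE), with 18.3 to 20.2 RPKM in the low-performing pools against 22.1 to 26.8 RPKM. SRSF2, which binds exonic enhancers rich in G or C, stood at -0.23 ± 0.14 (SE), and its highest low-performing pool (23.1 RPKM) and lowest high-performing pool (23.2 RPKM) nearly met. SRSF11 and SRSF6 overlapped between the groups, at 0.10 and 0.07.

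Some paralogs in the SR family stood on different sides and others did not. SRSF7 and SRSF3 were both higher, SRSF5 and SRSF6 were both above 0, and the ratio of SRSF4 to SRSF6 overlapped between the groups. The ratio of SRSF7 to SRSF3 was 3.64, 3.53 and 3.30 in the high-performing pools and 3.80 and 5.55 in the low-performing pools. For SRSF5 to SRSF6 it was 5.25, 5.17 and 7.28 against 7.84 and 9.25. Neither of these ratios overlapped between the groups, though each pair lay on the same side. The ratio of SRSF5 to SRSF4 was 0.296, 0.163 and 0.235 in the high-performing pools and 0.410 and 0.565 in the low-performing pools. The ratio of SRSF9 to SRSF1, its closest paralog, was 2.51, 2.07 and 2.23 against 2.81 and 5.85. The ratio of SRSF10 to SRSF12 was at most 1.50 in the high-performing pools and 1.73 and 1.98 in the low-performing pools. The groups did not overlap in the last 3 ratios, the second of which draws on SRSF1, low in pool 2 alone. For SRSF5 to SRSF4 and SRSF10 to SRSF12 this was fixed in advance. In each the upper gene was higher and the lower gene lower without overlap, so these ratios only restate the values of the genes. Ratios of other genes were not counted in this way, and 58.7% of all genes tested had groups that did not overlap. Ratios without overlap therefore do not show a trait of these paralogs. The differences between paralogs were not tested.

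Among the HNRNP genes the largest differences were lower values in the low-performing pools. HNRNPUL2, HNRNPUL1, HNRNPL and HNRNPH2 stood at between 0.547 and 0.670 of their high-performing means, while HNRNPA1, HNRNPC and HNRNPA2B1 stood at 1.27 to 1.34 times theirs. None passed limma over all genes tested.

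HNRNPUL2, a relative of the scaffold protein hnRNP U that takes part in the response to DNA breaks, lies on chromosome 29, positions 41032884 to 41042489, minus strand. It stood at 31.1, 39.7 and 36.9 RPKM in the high-performing pools and at 24.0 and 15.3 RPKM in the low-performing pools. Both low-performing pools were below every high-performing pool. The log2 fold change was -0.86 ± 0.21 (SE; limma, adjusted p = 0.0829), the largest of the 31, and was -0.55 without low-performing pool 2.

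HNRNPUL1, its paralog on chromosome 18, positions 50440559 to 50474318, plus strand, stood at 77.3, 109 and 87.7 RPKM against 69.1 and 40.6 RPKM. Again both low-performing pools were the lowest. Its log2 fold change was -0.76 ± 0.25 (SE; limma, adjusted p = 0.0938), and -0.38 without low-performing pool 2 against -1.14 without pool 1. HNRNPU itself, which organises nuclear RNA and chromatin, stood at 226, 208 and 171 RPKM against 191 RPKM in each low-performing pool, and its groups overlapped. The ratio of HNRNPU to HNRNPUL2 was 7.27, 5.24 and 4.63 in the high-performing and 7.95 and 12.5 in the low-performing pools. The ratio of HNRNPU to HNRNPUL1, at 2.93, 1.91 and 1.95 against 2.76 and 4.72, overlapped between the groups.

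HNRNPL, which binds CA-rich RNA and represses or activates exons by position, lies on chromosome 18, positions 48557658 to 48569498, minus strand. It stood at 65.2, 69.7 and 60.7 RPKM in the high-performing pools and at 50.8 and 28.7 RPKM in the low-performing pools. The groups did not overlap, and pool 2 was far below pool 1. Its log2 fold change was -0.75 ± 0.23 (SE; limma, adjusted p = 0.0872), and -0.35 without low-performing pool 2 against -1.15 without pool 1.

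HNRNPH2, the X-linked member of the H and F group that binds runs of G, lies at positions 50797768 to 50803571, minus strand. It stood at 9.31, 10.4 and 10.1 RPKM in the high-performing pools and at 7.86 and 5.44 RPKM in the low-performing pools, again without overlap. The log2 fold change was -0.53 ± 0.17 (SE; limma, adjusted p = 0.0914), and -0.30 without low-performing pool 2. Its relatives stood elsewhere, though the differences between them were not tested. HNRNPH3 stood at 0.21 ± 0.13 (SE) with the low-performing pools higher, while HNRNPF and HNRNPH1, at -0.12 and -0.05, overlapped between the groups.

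HNRNPK, a KH-domain protein that binds C-rich RNA and DNA, was a case of 1 pool. It stood at 39.3, 38.7 and 39.5 RPKM in the high-performing pools, at 37.0 RPKM in low-performing pool 1 and at 20.1 RPKM in pool 2. Its log2 fold change of -0.50 ± 0.23 (SE) came to -0.08 without pool 2 and -0.93 without pool 1.

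**Figure D3:**
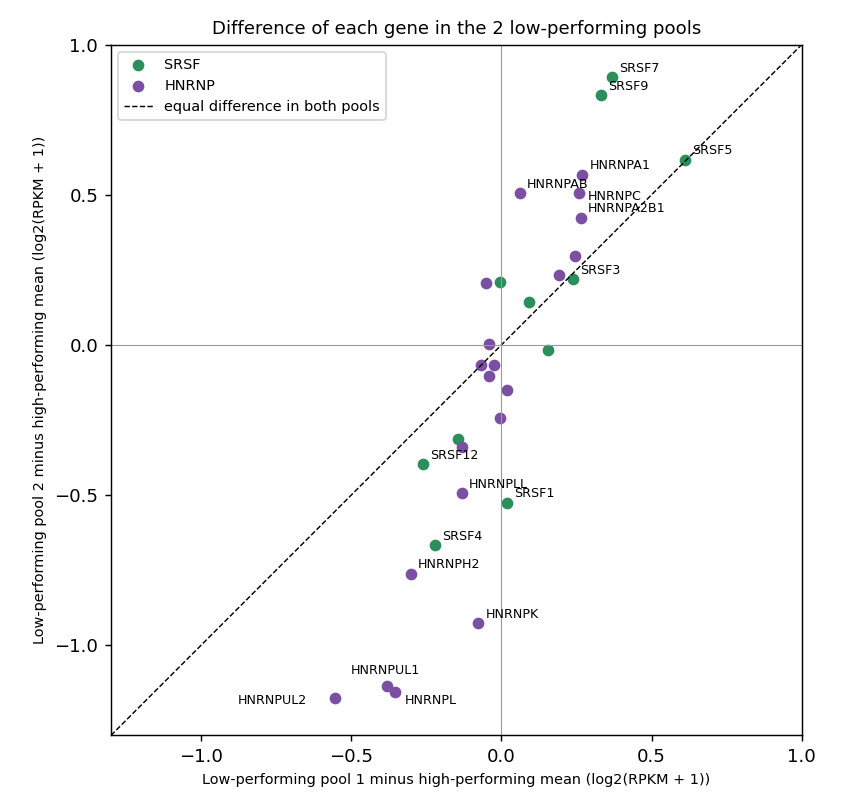
Difference of each gene from the high-performing mean in low-performing pool 1 (x axis) and pool 2 (y axis), on the log2(RPKM + 1) scale; the dashed line marks equal differences. Most points lie farther from 0 on the y axis, HNRNPK and SRSF1 lie near 0 in pool 1 and well below it in pool 2, and SRSF5 lies on the line.

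Most, but not all, of the A and C hnRNPs, the core proteins of the particles that package pre-mRNA, were higher in the low-performing pools, and none passed limma. HNRNPA1, which silences exons and displaces SR proteins from them, stood at 176, 147 and 153 RPKM in the high-performing pools and at 191 and 235 RPKM in the low-performing pools, without overlap. Its log2 fold change was 0.42 ± 0.16 (SE; limma, adjusted p = 0.113), and 0.27 without low-performing pool 2. HNRNPA2B1, a partner of A1 that also sorts RNAs, stood at 0.34 ± 0.14 (SE), HNRNPC at 0.38 ± 0.15 (SE) and HNRNPA3 at 0.27 ± 0.14 (SE), each with both low-performing pools above every high-performing pool. With quantile normalization HNRNPA1 came to 0.20, HNRNPC to 0.13 and HNRNPA3 to 0.07. HNRNP genes higher at an unadjusted p under 0.05 then went from 3 to 0. Over all genes, calls in either direction at that threshold went from 34.9% to 36.7%. HNRNPA0, of the same group, overlapped at -0.07. HNRNPA1 is known for many processed pseudogenes, and no source used here says how reads shared with near-identical copies were counted.

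The ratio of SRSF1 to HNRNPA1, the textbook pair of antagonists, was 0.374, 0.507 and 0.461 in the high-performing pools and 0.373 and 0.206 in the low-performing pools. Low-performing pool 1 equalled high-performing pool 1 to within 0.01, so only pool 2 lay clearly below. The ratio of these mRNAs was not tested.

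HNRNPD and HNRNPDL, neighbours 48.9 kb apart on chromosome 6 with no listed gene between them, stood at 0.08 ± 0.16 (SE) and -0.02 ± 0.14 (SE) on the log2 scale. Quantile normalization turned them to -0.21 and 0.0016, and a trimmed-mean factor turned HNRNPDL to 0.0121. HNRNPAB, of the same group, stood at 0.28 ± 0.22 (SE) with overlapping groups. HNRNPM, which binds GU-rich RNA, stood at -0.07 ± 0.13 (SE), and HNRNPR, a relative of SYNCRIP, at -0.23 ± 0.14 (SE) with both low-performing pools lower. HNRNPAB shares 342 of its 1777 bases with exons of PHYKPL on the opposite strand, and SRSF2 shares 175 bases with METTL23. No source used here says if the counting used strand. PHYKPL stood below 0.19 RPKM in every pool and METTL23 between 3.44 and 5.36 RPKM.

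Counted together, 19 of the 31 genes, 61.3%, had groups that did not overlap, against 58.7% of all genes tested. These were 8 of 11 SRSF genes, 5 of them higher with low-performing sires and 3 lower, and 11 of 20 HNRNP genes, 5 higher and 6 lower. Over all genes tested, 29.4% were higher and 29.3% lower in this way. The log2 fold change was above 0 for 7 of 11 SRSF and 7 of 20 HNRNP genes, against 46.7% of all genes. At an unadjusted p under 0.05 in limma there were 12 of the 31 genes, against 34.9% of all genes. Of these, 3 SRSF and 3 HNRNP genes were higher (19.0% of all genes) and 2 SRSF and 4 HNRNP genes lower (15.9% of all genes). At an adjusted p under 0.1 there were 7, the 4 HNRNP and 3 SRSF genes described first, against 21.4%. That count was 0 with no filter, with the length trend removed and without high-performing pool 2 or 3. In each of those fits 0% of all genes were called. It was 1 with library weights (9.65% of all genes), 2 with the replicate block (10.1%) and 3 without high-performing pool 1 (12.6%). In the main fit the shares were near those of all genes, so the number of differing members did not set the families apart from other genes. At an adjusted p under 0.05, limma voom on the recovered reads called 0 of all genes too.

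In the authors' deposited table, for which no source used here gives the model, 6 of the 31 genes had an FDR under 0.05, against 16.1% of the genes tested here. By the authors' deposited table SRSF5 (log2 fold change 0.63, FDR 0.0191), SRSF7 (0.65, FDR 0.0249) and SRSF9 (0.61, FDR 0.0457) were higher in low-performing pools, where 11.0% of genes passed in that direction. By the authors' deposited table HNRNPUL2 (-0.87, FDR 0.00351), HNRNPL (-0.71, FDR 0.0425) and HNRNPUL1 (-0.74, FDR 0.0492) were lower, where 5.07% of genes passed. HNRNPH2 had an FDR of 0.0691 in the authors' deposited table. Each gene passing upward there was an SRSF gene and each passing downward an HNRNP gene.

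Compared as families by their median fold change, the SRSF genes stood slightly higher and the HNRNP genes slightly lower in the low-performing pools. The median log2 fold change was 0.10 over the 11 SRSF genes, which ranged from -0.44 to 0.63, and -0.07 over the 20 HNRNP genes, which ranged from -0.86 to 0.42. Over all 12448 genes it was -0.03. The HNRNP median lay 0.17 below the SRSF median, but the order reversed once the gene-length trend was removed, with -0.06 for SRSF, 0.0024 for HNRNP and a difference of 0.07. With 1 pool left out the SRSF median ranged from 0.0046, without high-performing pool 3, to 0.17, without high-performing pool 1.

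In each pool the mean level of the SRSF genes was below that of the HNRNP genes. In log2(RPKM + 1) the SRSF mean minus the HNRNP mean was -0.66, -0.76 and -0.65 in the high-performing pools and -0.54 and -0.41 in the low-performing pools. The gap was narrower in both low-performing pools than in every high-performing pool. The SRSF share of the summed RPKM of both families was 20.5%, 20.0% and 20.4% in the high-performing pools and 21.5% and 23.2% in the low-performing pools. The summed HNRNP RPKM was itself higher in both low-performing pools, at 2137 and 2221, than in the high-performing pools, at 2091, 2124 and 2025. For SRSF genes the sum was 539.7, 531 and 519 in the high-performing pools and 587 and 669.9 in the low-performing pools. The mean HNRNP level in log2(RPKM + 1), at 5.79, 5.83 and 5.70 against 5.73 and 5.58, overlapped between the groups.

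The difference of means did not turn on 1 gene, while the share turned on SRSF9. Both were taken without removing the gene-length trend. With each of the 31 genes left out in turn, a choice made after the values were seen, both low-performing pools stayed above every high-performing pool in the difference of means in 31 of 31 cases and in the share in 30. The exception was SRSF9, without which the SRSF share was 15.2%, 15.1% and 15.2% in the high-performing pools and 15.3% and 14.8% in the low-performing pools. With SRSF5, SRSF7 and SRSF9 left out together, the difference of means was between -0.98 and -0.92 in the high-performing pools and -0.93 in both low-performing pools. These 3 were picked for being the highest in fold change, so a smaller difference without them was fixed by the choice.

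**Figure D4:**
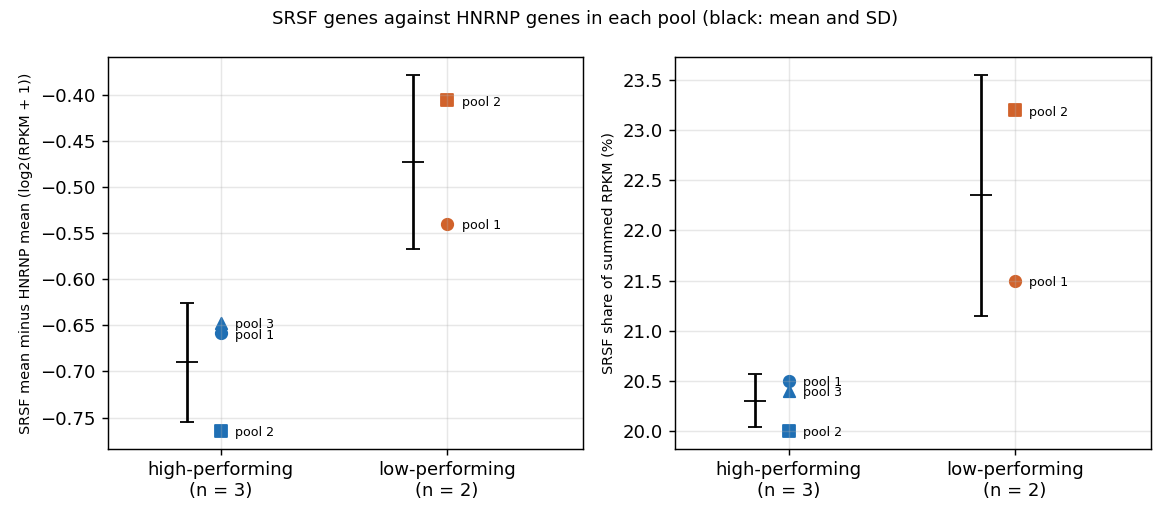
SRSF genes against HNRNP genes in each pool, as the difference of mean log2(RPKM + 1) (left) and as the SRSF share of summed RPKM in percent (right); neither axis starts at 0, and black marks give mean and SD (n = 3 and 2). Both low-performing pools lie above the high-performing pools, and pool 2 lies farthest, at -0.41 and 23.2%.

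Gene length moved with these differences. Over all 12448 genes tested the Spearman correlation of length with the log2 fold change was -0.516, and over the 31 genes it was -0.446; genes share the same 5 libraries and are not independent replicates. The median log2 fold change was 0.30 among the 1601 genes of 1001 to 1500 bases and -0.09 among the 1474 genes of 2501 to 3000 bases. SRSF9 and SRSF7 are short, 1011 and 1290 bases, and the median length was 1874 bases over the SRSF and 2453 bases over the HNRNP genes. With the trend removed, SRSF9 stood at 0.25 and SRSF7 at 0.40.

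Some members stood against the trend. SRSF12, of 970 bases, was lower in the low-performing pools, at -0.33, where genes of up to 1000 bases had a median of 0.48 over 1693 genes, and it stood at -0.68 with the trend removed. HNRNPA2B1, of 2431 bases, and HNRNPH3, of 2911 bases, were higher, and stood at 0.41 and 0.35 with the trend removed. With the trend removed SRSF5 stood at 0.57, HNRNPUL2 at -0.74, HNRNPL at -0.69, HNRNPUL1 at -0.54 and HNRNPH2 at -0.48. HNRNPA3 and SRSF3, short genes of 1143 and 947 bases, lay along the trend and turned from above to below 0, at -0.01 and -0.13.

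**Figure D5:**
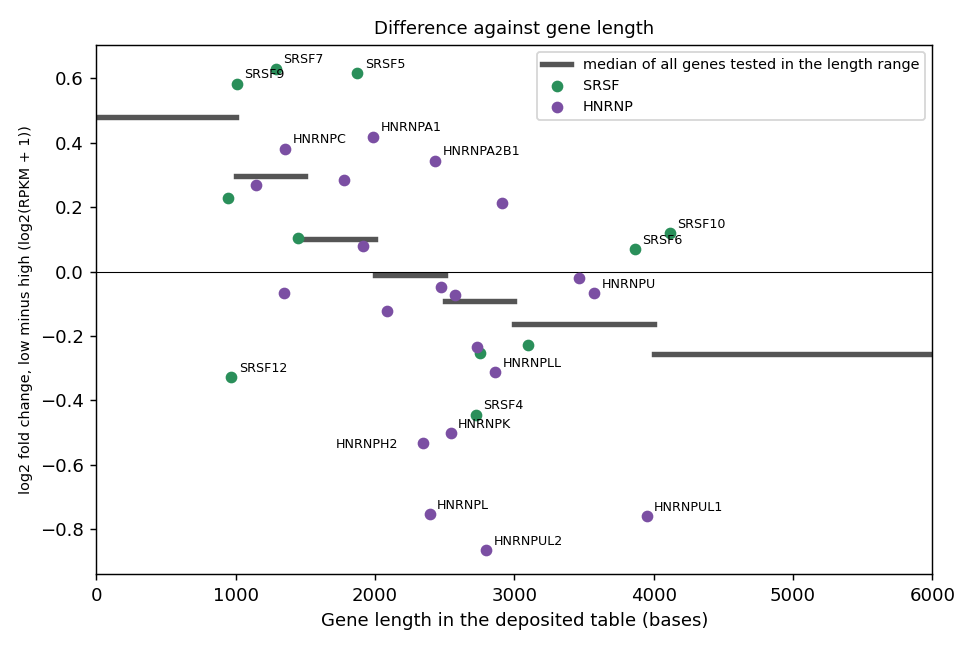
log2 fold change of each SRSF and HNRNP gene against its length in bases, with the median over all genes tested in each length range (grey bars). The bars descend from 0.48 to -0.26, and SRSF9 and SRSF7 lie above short-gene bars. SRSF12, HNRNPL, HNRNPH2, HNRNPUL1 and HNRNPUL2 are among the genes far below theirs.

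Genes that act with these families were taken from 4 lists. No gene of the lists passed limma over all genes tested in the main fit. Under the replicate block, where 6.69% of all genes passed, U2AF1 and SCAF8 did so (limma, adjusted p = 0.0449 and 0.0203). Counts below are of genes at an unadjusted p under 0.05 in the main fit, against 19.0% higher and 15.9% lower over all genes. Of the 17 kinases, phosphatase subunits, importers and partners of SR proteins tested, 0 were higher and 7 lower, around a median of -0.16, which was -0.04 with the length trend removed. The 3 with the smallest p were NKTR, a cyclophilin with an arginine- and serine-rich tail, at -0.54 ± 0.15 (SE), the kinase DYRK1A at -0.86 ± 0.25 (SE) and the phosphatase subunit PPP1CB at -0.74 ± 0.23 (SE). Without low-performing pool 2 DYRK1A came to -0.39 and PPP1CB to -0.34, and NKTR came to -0.24 with the length trend removed. SRPK1, the main kinase that loads SR proteins for import, stood at 226, 216 and 218 RPKM in the high-performing pools and at 249.8 and 291 RPKM in the low-performing pools, while its paralog SRPK2 stood at 237, 264 and 229 RPKM against 198 and 185 RPKM (-0.34 ± 0.14 SE). The importer TNPO3 stood at 0.21 ± 0.16 (SE) and TNPO2, of the same family, at -0.53 ± 0.22 (SE).

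Of 33 SR-related coactivators tested, 6 were higher and 6 lower around a median of 0.07. U2AF1, the small U2AF subunit that reads the 3' splice site, stood at 74.9, 52.1 and 45.1 RPKM in the high-performing pools and at 98.7 and 150.0 RPKM in the low-performing pools, higher by 1.10 ± 0.26 (SE) on the log2 scale. SREK1IP1 stood at 0.92 ± 0.22 (SE) and SCAF8, which binds the tail of RNA polymerase II, at -0.98 ± 0.25 (SE), which came to 0.56 and -0.52 without low-performing pool 2. The SR-like exon activators TRA2A and TRA2B stood at 0.06 and 0.11, with overlapping groups.

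Of 27 tested hnRNPs and related proteins with other gene names, 1 was higher and 12 lower, around a median of -0.20, which was -0.17 with the length trend removed. SYNCRIP, also called hnRNP Q, stood at 60.5, 72.2 and 68.7 RPKM in the high-performing pools and at 49.5 and 28.5 RPKM in the low-performing pools, which gave -0.82 ± 0.23 (SE) on the log2 scale. PCBP2, also called hnRNP E2, stood at -0.56 ± 0.16 (SE). Low-performing pool 2 was the lowest pool for both, and without it SYNCRIP came to -0.43. Of 26 other splicing regulators tested, 2 were higher and 8 lower, around a median of -0.21, which was -0.06 with the length trend removed. RBM10 stood at -0.72 ± 0.17 (SE), ESRP1, an epithelial splicing regulator, at -0.89 ± 0.28 (SE) and RBFOX1 at 0.54 ± 0.17 (SE). Without low-performing pool 2 ESRP1 came to -0.41 and RBFOX1 to 0.33.

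The calls depended on which pool was left out. Without low-performing pool 1, when pool 2 stands alone for its group and is assumed to vary like the others, 5372 genes passed limma at an adjusted p under 0.05, 43.6% of those tested, and 12 of the 31 were among them, 38.7%. Those 12 were SRSF5, SRSF7, SRSF9, HNRNPA1 and HNRNPC, which were higher, and SRSF1, SRSF4, HNRNPH2, HNRNPK, HNRNPL, HNRNPUL1 and HNRNPUL2, which were lower. Without low-performing pool 2, 0 of the 31 and 0 of all genes passed, with 4 of the 31 at an unadjusted p under 0.05, against 14.4% of all genes. Without high-performing pool 2 there were likewise 0 and 4, against 18.8%, and without high-performing pool 3 there were 0 and 7, against 20.2%.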

How the data were processed

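RNA from 5 pools of 100 cattle embryos was extracted with a column kit and made into stranded mRNA libraries, per the labels' protocols. FastQC, featureCounts, edgeR and build ARS-UCD1.2 are named in the submitters' processing notes. No source used here gives the aligner, the versions or the strand setting. The authors deposited RPKM per gene and library, log2 fold changes, mean log2 CPM, a likelihood ratio score, and p-values with FDR for low- against high-performing pools. RPKM times length in kilobases gave whole reads for 100% of values within 1e-04 of a read, taking the smallest such product of a library as 1 read.

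The main test was limma-trend (limma 3.58.1 in R 4.3.3) on log2(RPKM + 1) for genes with at least 1 RPKM in at least 2 of 5 libraries, 12448 genes, with Benjamini-Hochberg adjustment over all of them and a two-sided threshold of 0.05. Family values are medians and counts without a test. The 31 members, the gene lists and the alternatives were chosen with earlier results of these data known. Named with values in every pool were the 4 members per family with the largest change, the 3 with the highest level, SRSF1, HNRNPA1 and the member nearest the filter. The 3 genes per list with the smallest p are named with their fold changes, 1 of them not reported here. HNRNPK and HNRNPU by pool, and SRPK1, SRPK2, TRA2A, TRA2B, TNPO2 and TNPO3, were chosen after their values were seen. Of the symbols on the 4 lists, 18 of 18, 33 of 35, 28 of 29 and 30 of 30 were matched. Gene names and coordinates came from the file. The fit was tested on simulated reads. Plots used matplotlib 3.10.9 (Python 3.11.15).

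Each choice was changed alone. The values were altered by a pseudocount of 0.5 or 0.1, by quantile normalization, by a trimmed-mean factor and by removing a loess trend over log2 gene length (span 0.5). The genes were altered by dropping the filter or by asking for a mean RPKM of at least 5. The model was altered by omitting the trend, by a robust prior, by weighting libraries, by a replicate block and by limma voom on recovered reads. A threshold of 0.1 was tried, and each library was left out in turn. Leaving out members was added after the data were seen.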

Additional observations from a re-analysis of the deposited data

How the results depend on the processing

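No gene passed at an adjusted p under 0.05 except without low-performing pool 1 (0 to 5372 genes over the fits that leave out 1 pool) and under the replicate block (833 genes), and 2660 passed at 0.1. The block fit leaves 1 residual degree of freedom and takes no information from high-performing pool 3. No pairing is stated in the labels, so the numbers were not taken to pair the pools. Deviations of pools with the same number from their group means correlated at -0.485 and -0.259 over genes. With only 2 low-performing pools their deviations mirror each other, so these correlations cannot decide if pools were paired. With the replicate block 0 of the 31 genes passed. The SRSF median moved from 0.10 to 0.0579 with quantile normalization, 0.15 with library weights, 0.0046 with the replicate block and -0.0638 with the length trend removed, and ranged from 0.0046 to 0.17 with 1 pool left out. The HNRNP median moved from -0.07 to -0.17 with quantile normalization, -0.13 with the replicate block and 0.0024 with the length trend removed, and ranged from -0.13 to -0.0368 with 1 pool left out. Their difference was 0.0662 with the length trend removed and -0.23 to -0.13 with 1 pool left out. The cause of these moves was not tested.

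Signs turned for 11 named genes, some near 0 and some, such as SRSF3, HNRNPA3 and SRSF1, with changes of 0.23 to 0.27 in size. With the length trend removed SRSF11 stood at -0.0638, SRSF3 at -0.13, HNRNPA3 at -0.0133, HNRNPDL at 0.17, HNRNPH1 at 0.0287, HNRNPM at 0.0181 and HNRNPU at 0.13. With quantile normalization HNRNPD stood at -0.21 and HNRNPDL at 0.0016, the latter at 0.0121 with the trimmed-mean factor. With the replicate block SRSF6 stood at -0.0362 and HNRNPDL at 0.0350, and with library weights HNRNPH1 at 0.0558 and HNRNPU at 0.0113. With 1 pool left out the ranges were -0.53 to 0.0201 for SRSF1, -0.0029 to 0.21 for SRSF11, -0.0362 to 0.21 for SRSF6, -0.15 to 0.0180 for HNRNPA0, -0.0506 to 0.21 for HNRNPD, -0.10 to 0.0350 for HNRNPDL, -0.18 to 0.13 for HNRNPH1 and -0.18 to 0.0199 for HNRNPU. The least read member had 320 reads in a pool. The cause of these turns was not tested.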
